A study of Mus musculus with 10 samples.

Results

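The BCL2 family was examined in epithelial crypts of the mouse small intestine through 10 of its genes, all 10 of which were among the 54838 genes listed for each library. No threshold on measured values entered the choice of the 10, although results of these data were known when they were chosen. They comprised the pro-survival genes Bcl2, Bcl2l1 and Mcl1, the pro-death effectors Bax and Bak1, the BH3-only genes Bid, Bbc3, Bcl2l11 and Bik, and Bcl2l15, a divergent BCL2-like gene that was counted here with the pro-death genes. RNA-seq had been performed on polyA RNA of jejunal crypts from 5 WT and 5 Arid3a conditional knockout (cKO) libraries. All animals of both groups had received tamoxifen on 3 consecutive days and were culled 1 month after the first injection. The cKO animals were VillinCre-ERT2+/-; Arid3a fl/fl, so that tamoxifen deletes Arid3a, a gene for an AT-rich interaction domain DNA-binding protein, in Villin-expressing epithelium and leaves the gene intact in stroma and leukocytes. The sources used here give neither the alleles of the WT animals nor the age of either group.

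Each library had its own animal identifier. All 5 WT identifiers share a prefix that no cKO identifier carries, and all 5 cKO identifiers share another. The meaning of the prefixes is not stated, and whatever they mark cannot be told apart from genotype. Libraries held 27050455 to 31053622 expected counts, so a normalized level of 1 CPM stood for 27 to 31 counts. CPM are counts scaled to a common library size after TMM normalization. Arid3a itself was at 2.42 ± 0.397 CPM (SD, n = 5) in WT and 0.673 ± 0.350 CPM (n = 5) in cKO crypts without overlap, a log2 fold change of -1.84 (SE 0.32, adjusted p = 0.00204), although it was covered by only 9 to 81 counts. Epithelial markers were abundant in every library, with a summed level of 5757 to 6741 CPM in WT and 6616 to 7535 CPM in cKO crypts over 6 genes.

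BCL2 proteins decide whether the outer mitochondrial membrane is opened. BAX and BAK, when activated, oligomerize in that membrane and release cytochrome c, which drives caspase activation. BCL2, BCL-XL (from Bcl2l1) and MCL1 hold BAX and BAK in check, and BH3-only proteins such as BIM (Bcl2l11), PUMA (Bbc3), BID and BIK respond to stress and engage the pro-survival proteins or the effectors. In the intestinal crypt, dividing cells are sensitive to DNA damage, and PUMA is known as a mediator of their death after irradiation. Most of this control acts on proteins, which were not measured.

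The promoter windows of 3 genes are shown because Bcl2l1 and Mcl1 were the members that passed the test and Bcl2l15 had the largest fold change. Each runs 5′ to 3′ from 250 bases before to 50 bases after a RefSeq transcription start on GRCm38.p6, on the strand of the gene, and is the window at the outermost start where several were given. In GENCODE M21 (GRCm38) the protein-coding gene Bcl2l1 (ENSMUSG00000007659) spans chr2:152780668-152831728 on the minus strand, Mcl1 (ENSMUSG00000038612) chr3:95658788-95663176 on the plus strand and Bcl2l15 (ENSMUSG00000044165) chr3:103832601-103854618 on the plus strand. The Bcl2l1 window lies at chr2:152831679-152831978, the Mcl1 window at chr3:95658471-95658770 and the Bcl2l15 window at chr3:103832446-103832745. Capitals mark matches to the motifs described after them.

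Bcl2l1: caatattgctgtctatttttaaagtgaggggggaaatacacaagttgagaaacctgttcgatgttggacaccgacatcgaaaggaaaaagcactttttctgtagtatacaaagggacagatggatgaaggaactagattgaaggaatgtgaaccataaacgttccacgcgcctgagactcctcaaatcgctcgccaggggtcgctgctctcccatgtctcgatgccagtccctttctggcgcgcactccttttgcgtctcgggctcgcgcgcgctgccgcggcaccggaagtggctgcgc
Mcl1: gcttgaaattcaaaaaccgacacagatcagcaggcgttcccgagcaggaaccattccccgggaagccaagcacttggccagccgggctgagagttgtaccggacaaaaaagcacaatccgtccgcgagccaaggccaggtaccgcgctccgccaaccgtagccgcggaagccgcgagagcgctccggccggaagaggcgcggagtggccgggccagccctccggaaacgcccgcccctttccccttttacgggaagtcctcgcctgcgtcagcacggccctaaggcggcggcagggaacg
Bcl2l15: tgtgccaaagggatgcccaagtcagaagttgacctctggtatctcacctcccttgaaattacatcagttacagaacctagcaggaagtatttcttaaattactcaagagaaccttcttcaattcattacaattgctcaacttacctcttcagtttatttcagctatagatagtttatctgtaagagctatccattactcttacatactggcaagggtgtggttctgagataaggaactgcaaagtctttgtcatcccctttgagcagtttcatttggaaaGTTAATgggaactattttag

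The windows differed in base composition. A and T made up 61.7% of the Bcl2l15 window, more than in most promoters (92.6th percentile of 32851 windows of the same length). They made up 47.7% of the Bcl2l1 window, close to the median window (47.3%), and 34.3% of the Mcl1 window (17.0th percentile). The following sequences were searched on both strands with exact letters, with no overlap between their matches in these windows: the AT-rich hexamer ATTAAA, the HNF1 half-site GTTAAT, the HNF4 site CAAAGTCCA and the TATA box TATAAA. The only match in the 14 windows of 9 members was one HNF1 half-site, in the Bcl2l15 window, and 7.10% of all windows hold that sequence. ATTAAA is present in 13.9%, TATAAA in 13.6% and CAAAGTCCA in 0.475% of all windows. Bik had no window in the table.

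Expression per transcript length, in TPM, in which the transcripts of a library sum to a fixed total, placed the effector Bak1 at the top of the family. Bak1 was at 121 ± 10.7 TPM in WT and 123 ± 10.8 TPM in cKO crypts (mean ± SD over 5 libraries, here and in the next sentences). Mcl1 followed with 58.5 ± 5.54 and 63.4 ± 6.23 TPM, then Bax with 48.4 ± 4.87 and 40.1 ± 3.09 TPM and Bcl2l1 with 17.2 ± 2.40 and 23.0 ± 2.57 TPM. Bid (10.6 ± 1.58 and 9.02 ± 0.752 TPM), Bcl2l15 (5.18 ± 2.74 and 12.3 ± 6.26 TPM), Bcl2l11 (4.78 ± 0.739 and 4.95 ± 0.784 TPM) and Bcl2 (3.57 ± 0.670 and 3.05 ± 0.701 TPM) formed a middle range. Bbc3 (1.55 ± 0.357 and 1.52 ± 0.276 TPM) and Bik (0.928 ± 0.216 and 0.664 ± 0.263 TPM) were lowest.

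Several neighbours in this order were not separated by the spread between libraries. In WT crypts the ranges of Mcl1 and Bax overlapped, as did those of Bid and Bcl2l15, of Bcl2l15 and Bcl2l11, of Bcl2l11 and Bcl2, and of Bbc3 and Bik. In cKO crypts Mcl1 (57.4 to 71.3 TPM) and Bax (35.4 to 44.1 TPM) lay apart, and Bcl2l15 stood above Bid by its mean but overlapped both Bid and Bcl2l1. Bcl2 is thus a minor pro-survival transcript in these crypts, where Mcl1 made up 69.1 to 77.0% of the TPM of the 3 pro-survival genes in WT and 69.5 to 72.7% in cKO libraries. Bak1 made up 59.7 to 64.5% of the TPM of the 7 pro-death genes in WT and 60.1 to 67.5% in cKO libraries.

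**Figure D1:**
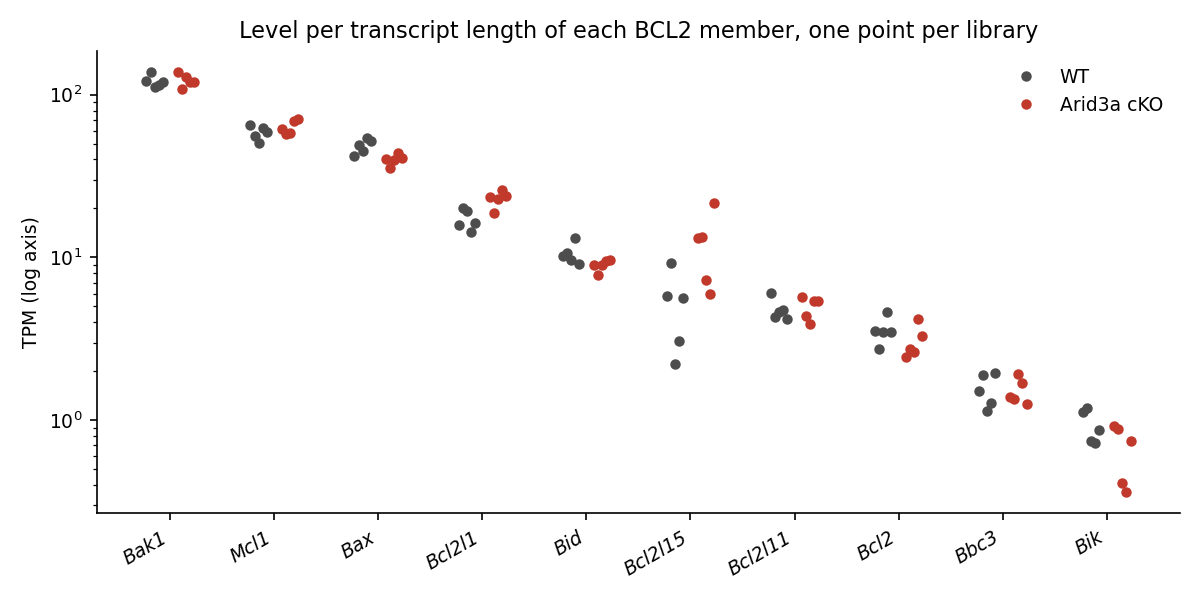
TPM (log axis) of the 10 members in each of 5 WT (grey) and 5 Arid3a cKO (red) libraries, with genes ordered by their WT mean. Bak1 lies above 100 TPM in all libraries, and Bcl2l15 has the widest spread, from 2.22 to 21.8 TPM.

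Of the 10 members, 2 passed an adjusted p of 0.05 in edgeR's quasi-likelihood test between genotypes, against 28.3% of the 14719 genes tested. Both were pro-survival genes and both were higher in cKO crypts, the direction of 15.6% of tested genes, and no member was lower, the direction of 12.7%. At an unadjusted p below 0.05 Bax would be the 1 member called lower, and DESeq2 called 0 members lower. The share of members called is near that of all genes, so the count itself says nothing particular to the family. The median log2 fold change was 0.25 over the 3 pro-survival members, which is the value of Mcl1. It was -0.02 over the 2 effectors, 0.02 over the 4 BH3-only members and -0.03 over all genes tested. Bcl2l15, counted with the pro-death genes, was at 1.33. With library-size scaling the 4 medians became 0.12, -0.14, -0.11 and -0.16, and on log2(TPM + 1) 0.11, -0.12, -0.11 and -0.10, in the same order. In the rest of the family the median was -0.34 over the 3 tested pro-survival genes and 0.29 over the 5 tested pro-death genes.

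Bcl2l1, which encodes the anti-apoptotic BCL-XL, was the member with the most stable change. Its level was 26.5, 32.6, 29.2, 21.6 and 28.7 CPM in WT replicates 1 to 5 and 39.9, 34.0, 34.4, 44.8 and 42.7 CPM in cKO replicates 1 to 5. Every cKO library lay above every WT library, which was true of 19.6% of genes in either direction. The group means were 27.7 ± 4.05 and 39.2 ± 4.85 CPM (n = 5 per genotype, SD), so that Bcl2l1 rose by a log2 fold change of 0.50 (SE 0.11, adjusted p = 0.00793). It remained past the threshold in all 22 alternative analyses, in which the adjusted p was between 6.3e-04 and 0.0428. In TPM the groups overlapped, because cKO replicate 2 (18.9 TPM) fell below WT replicates 2 (20.1 TPM) and 3 (19.3 TPM).

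Mcl1, whose short-lived protein restrains BAK in particular, rose by a smaller amount. It was at 161.9, 142, 126, 141 and 161 CPM in the WT libraries and at 168, 164, 162.3, 177 and 201 CPM in the cKO libraries. By CPM the groups did not overlap, but only 0.369 CPM separated WT replicate 1 from cKO replicate 3. In TPM they overlapped, with 50.8 to 65.1 TPM in WT and 57.4 to 71.3 TPM in cKO libraries. The mean rose from 146 ± 15.1 to 174 ± 16.0 CPM, a log2 fold change of 0.25 (SE 0.09, adjusted p = 0.0419). This call was lost on leaving out any one of WT replicates 2, 3 and 4 or cKO replicates 1, 2, 4 and 5, with an adjusted p of 0.0589 to 0.123, and it was also lost when libraries were scaled by size only (0.12, adjusted p = 0.250) or tested as log2(TPM + 1) (0.11, adjusted p = 0.338). Those scalings also moved the median of all genes, to -0.16 and -0.10, and relative to that median Mcl1 stood at 0.29 in edgeR with TMM, at 0.29 with library size and at 0.21 on the TPM scale.

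Bcl2, the founding pro-survival member, did not pass the test. It was at 18.7, 15.3, 18.7, 22.9 and 19.8 CPM in WT and at 13.9, 16.1, 15.5, 22.6 and 19.4 CPM in cKO libraries. The groups overlapped over most of their range, and the log2 fold change was -0.12 (SE 0.14, adjusted p = 0.539), with -0.05 when WT replicate 4 and -0.23 when cKO replicate 4 was left out. The summed CPM of 7 markers of T cells and intraepithelial lymphocytes, cells that also express Bcl2, ranged from 78.0 to 269 in WT and from 117 to 286 in cKO libraries, with none of the 7 genes past the test. The sums of 6 B and plasma cell markers were 21.7 to 65.1 and 7.80 to 23.4 CPM, and those of 7 stroma markers 8.47 to 82.0 and 8.83 to 134 CPM. Among cKO libraries replicate 4 had both the highest stroma sum and the highest Bcl2. Among WT libraries the highest Bcl2, in replicate 4, came with the lowest stroma sum. The part of these cell types in the Bcl2 level was not tested.

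**Figure D2:**
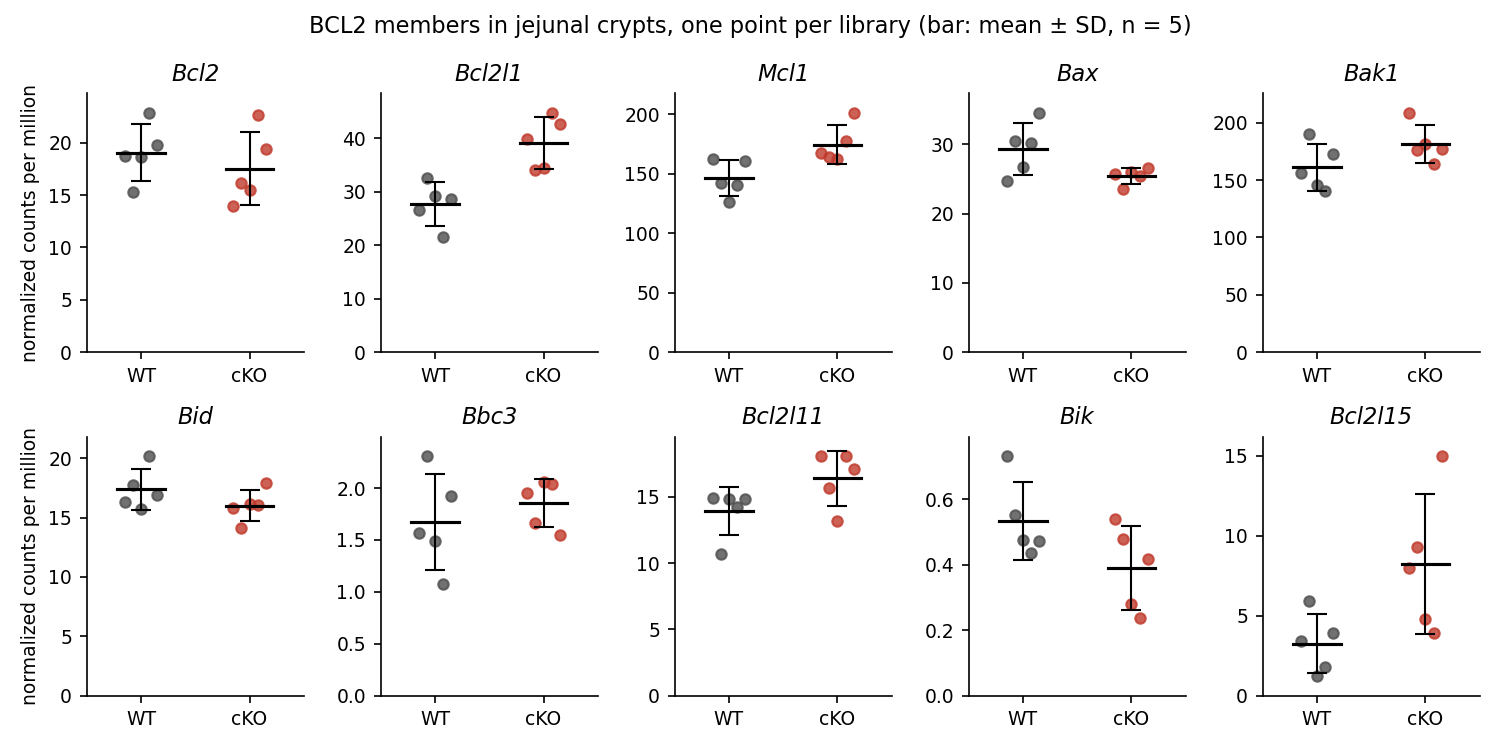
Normalized level (CPM) of each member, with 1 point per library and the mean ± SD (n = 5) in black, each panel on its own axis from 0. Bcl2l1 and Mcl1 are the 2 panels in which the WT and cKO points do not overlap.

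Among the effectors, Bax had a negative and Bak1 a positive fold change, and neither passed the test. Bax was at 24.8, 30.5, 26.7, 30.2 and 34.6 CPM in WT and at 25.7, 23.6, 25.9, 25.4 and 26.6 CPM in cKO libraries. The cKO libraries were tightly grouped around the lower end of the WT range, with means of 29.3 ± 3.77 and 25.4 ± 1.12 CPM and a log2 fold change of -0.21 (SE 0.09, adjusted p = 0.101). Bax passed the threshold as lower with library-size scaling (-0.33, adjusted p = 0.0095), on log2(TPM + 1) (-0.26, adjusted p = 0.0344) and without WT replicate 1 (-0.26, adjusted p = 0.0353), whereas without WT replicate 5, the highest library, the difference was -0.12. Relative to the median of all genes its difference was -0.17 in edgeR with TMM, -0.17 with library size and -0.16 on the TPM scale.

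Bak1 was at 156, 190.1, 146, 140.2 and 173 CPM in WT and at 209, 176, 182, 164 and 178 CPM in cKO libraries. The groups overlapped, and the log2 fold change was 0.17 (SE 0.09, adjusted p = 0.178). Without WT replicate 2, the highest WT library, it became 0.24 with an adjusted p of 0.0489. On the TPM scale the difference was 0.03 (adjusted p = 0.833).

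None of the 4 BH3-only members passed the edgeR test, 0 of them at an unadjusted p below 0.05 and 0 in DESeq2. Bid, which links death receptors to the mitochondrion once cut by caspase-8, was at 16.3, 17.8, 15.7, 20.2 and 16.9 CPM in WT and at 15.8, 14.2, 16.2, 16.0 and 17.9 CPM in cKO libraries (log2 fold change -0.12, SE 0.09, adjusted p = 0.347). The groups overlapped, and without WT replicate 4 the difference was -0.06. Exons of Bid overlap those of Bcl2l13 on the opposite strand, and since the strand setting of the counting is not given in the sources used here, counts of Bid are uncertain where the genes meet. Bcl2l13 reached 1920 counts in a library, against at most 602 for Bid, and its log2 fold change was 0.00 (SE 0.07).

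Bcl2l11, encoding BIM, was at 14.9, 10.7, 14.8, 14.2 and 14.8 CPM in WT and at 18.1, 15.7, 13.1, 18.1 and 17.1 CPM in cKO libraries. By CPM it was above all WT libraries in 4 of the 5 cKO libraries, with cKO replicate 3 below 4 of the WT libraries, but in TPM no cKO library exceeded WT replicate 1 (6.04 TPM). Its log2 fold change was 0.24 (SE 0.12, adjusted p = 0.143), which became 0.11 with library-size scaling and 0.04 on log2(TPM + 1). Bbc3, encoding PUMA, was at 1.57, 2.31, 1.49, 1.07 and 1.93 CPM in WT and at 1.95, 1.66, 2.06, 2.04 and 1.55 CPM in cKO libraries, from 32 to 67 counts. Its log2 fold change of 0.15 (SE 0.22, adjusted p = 0.638) turned to -0.01 on the log2(TPM + 1) scale, and the cKO values lay within the WT range. Without WT replicate 4, the lowest library, it was 0.03, and without WT replicate 2, the highest, 0.29. Bik, a BH3-only gene of the endoplasmic reticulum, was at 0.731, 0.551, 0.475, 0.435 and 0.473 CPM in WT and at 0.539, 0.479, 0.280, 0.238 and 0.416 CPM in cKO libraries. These levels rest on 7 to 21 counts, the groups overlapped, and no difference was detected (-0.45, SE 0.30, adjusted p = 0.285).

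Bcl2l15, a gene known for expression in the gastrointestinal tract, had the largest fold change of the family and the widest spread. It was at 3.41, 5.92, 1.26, 1.81 and 3.89 CPM in WT and at 8.02, 9.29, 4.83, 3.94 and 14.99 CPM in cKO libraries. All cKO libraries lay above 4 of the 5 WT libraries, and only WT replicate 2 overlapped them. The means were 3.26 ± 1.85 and 8.21 ± 4.38 CPM, a log2 fold change of 1.33 (SE 0.47), and the adjusted p of 0.0574 missed the threshold. It passed in DESeq2's Wald test (1.34, adjusted p = 0.0062), without WT replicate 2 (1.67, adjusted p = 0.0236) and without cKO replicate 4 (1.51, adjusted p = 0.0425).

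Markers of several cell types were also called between genotypes. Beside these counts, 15.6% of all genes tested were higher and 12.7% lower, and 19.6% of single genes had groups without overlap. That last share was not computed for sums of lists. Of the goblet cell markers 0 of 5 were called, and their sums overlapped (2542 to 3218 CPM in WT and 3084 to 3647 CPM in cKO libraries). At an unadjusted p below 0.05 in edgeR, Clca1 was higher and Agr2 lower. All 9 enterocyte markers passed as higher, and their summed level was 1229 to 5952 CPM in WT and 7565 to 13758 CPM in cKO libraries, without overlap. The WT library with the highest Bcl2l15, replicate 2, also had the highest enterocyte sum (5952 CPM), whereas in cKO crypts replicates 4 (13758 CPM) and 5 (13744 CPM) had nearly equal sums and the lowest and the highest Bcl2l15, respectively. Of the enteroendocrine markers 2 of 5 were higher (sums of 398 to 481 and 517 to 746 CPM) and of the tuft cell markers 2 of 4 (76.1 to 85.6 and 86.3 to 98.9 CPM), in both cases without overlap of the sums. In the opposite direction, 3 of 4 stem cell markers, 4 of 5 Paneth cell markers and 3 of 6 proliferation markers were lower in cKO crypts. The Paneth sum was 7828 to 13955 CPM in WT and 5552 to 7621 CPM in cKO libraries, and the proliferation sum 1379 to 1592 and 1076 to 1322 CPM. The stem cell sums overlapped (4527 to 7479 CPM in WT and 3529 to 5380 CPM in cKO libraries), and Lgr5 did not pass in edgeR (adjusted p = 0.653). The part of these cells in the changes of Bcl2l1 and Mcl1 and in the differences of Bax and Bcl2l15 was not tested. In bulk RNA, fewer cells of a type and less RNA per cell cannot be told apart. Markers of B and plasma cells were also lower in 2 of 6 genes (sums of 21.7 to 65.1 and 7.80 to 23.4 CPM) and myeloid markers in 2 of 6 (17.7 to 39.8 and 10.1 to 29.0 CPM). No marker of these cell types was at 0 counts in a library.

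The balance of pro-survival to pro-death transcripts was then expressed in each library as the share of the 3 pro-survival genes in the summed TPM of the 10 members. It was 31.0, 26.8, 29.7, 29.8 and 28.9% in WT and 29.6, 31.4, 30.4, 34.6 and 33.1% in cKO libraries. The groups overlapped. Their mean shares were 29.2% ± 1.55 for WT and 31.8% ± 2.02 for cKO (n = 5 per genotype, SD), 2.58 percentage points apart. Without Mcl1 the shares were 9.78% ± 1.02 and 12.0% ± 1.14, and without Bcl2l15 they were 29.8% ± 1.43 and 33.3% ± 2.22. The TPM sum of the pro-death members was nearly equal (192 ± 14.6 and 192 ± 13.4 TPM), and that of the pro-survival members was 79.3 ± 4.03 and 89.5 ± 8.82 TPM. In CPM the effector sum had a median of 181 in WT and 204 in cKO libraries, with overlap. The CPM shares were 46.0% ± 2.34 and 48.0% ± 3.04. Family genes outside the 10 are not in these sums. Their mean TPM was 31.8 and 36.5 for Bad, 34.2 and 41.0 for Bcl2l14, and 7.25 and 11.9 for Pmaip1. Bok was at 8.89 and 7.11 TPM and the pro-survival Bcl2l2 at 12.8 and 13.2 TPM.

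A single ratio separated the groups more clearly. Bcl2l1 over Bax in TPM was 0.378, 0.410, 0.429, 0.266 and 0.314 in WT and 0.580, 0.533, 0.572, 0.588 and 0.587 in cKO libraries. The ranges did not overlap, and because both values come from the same library the ratio does not depend on scaling between libraries. This pair was chosen after the values were seen, so that the ratio is a description with no test. Bcl2l1 over Bak1, the more abundant effector, overlapped between the groups. It was higher in WT replicate 3 (19.3 and 110.9 TPM) than in cKO replicate 1 (23.5 and 137.5 TPM).

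**Figure D3:**
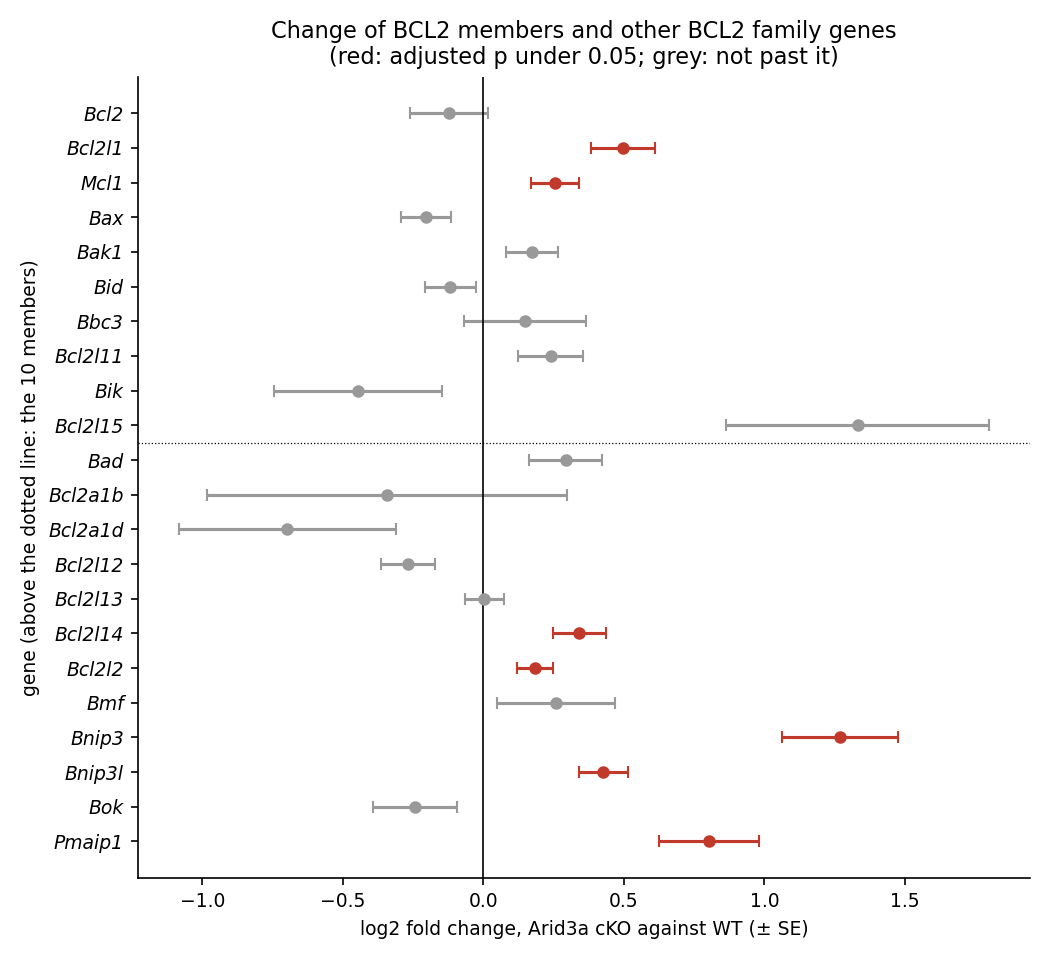
Log2 fold change in Arid3a cKO against WT crypts with its SE for the 10 members (above the dotted line) and the 12 tested genes of the rest of the family, with red for an adjusted p below 0.05 in edgeR. Bcl2l1 (0.50) and Mcl1 (0.25) are the red points among the members, and Bnip3 (1.27) and Pmaip1 (0.80) lie farthest to the right among the red points below the line.

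The rest of the BCL2 family comprised 15 genes, of which 12 could be tested. Among these, 5 were higher and none was lower in cKO crypts in edgeR, against 15.6% and 12.7% of all genes tested. Bcl2l12 was the 1 gene lower at an unadjusted p below 0.05. Of the pro-survival genes, Bcl2l2, encoding BCL-W, rose from 29.2 ± 1.68 to 33.2 ± 1.38 CPM (log2 fold change 0.18, SE 0.06, adjusted p = 0.0475). This call was lost on leaving out any one library other than WT replicate 2, and also in limma-voom, with library-size scaling and with no filter. It was lost too with effective length as an offset, with replicate number as a block and on the TPM scale. Bcl2a1b (-0.34, SE 0.64) and Bcl2a1d (-0.70, SE 0.39) did not pass, and as near-identical copies they share reads, so that their separate counts are uncertain. Bcl2a1a had at most 6 counts, and Bcl2l10 had 0 counts in all 10 libraries, which allows up to 3 counts per library.

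Of the 5 tested pro-death genes in this remainder, 2 passed as higher. Pmaip1, encoding the BH3-only protein NOXA that engages MCL1, rose from 14.4 ± 4.49 to 25.1 ± 2.38 CPM (0.80, SE 0.18, adjusted p = 0.0077), and Bcl2l14 from 46.3 ± 5.20 to 58.6 ± 6.42 CPM (0.34, SE 0.09, adjusted p = 0.019). Bad (0.29, SE 0.13, adjusted p = 0.110), Bmf (0.26, SE 0.21, adjusted p = 0.382) and Bok (-0.24, SE 0.15, adjusted p = 0.243) did not pass, and Hrk had 0 counts in every library. Of the genes with a less settled role, Bnip3 rose from 4.13 ± 1.27 to 9.98 ± 1.95 CPM (1.27, SE 0.21, adjusted p = 0.0016) and Bnip3l from 47.8 ± 6.16 to 64.3 ± 3.67 CPM (0.43, SE 0.09, adjusted p = 0.005). Both encode receptors for the removal of mitochondria by autophagy. Bcl2l12 was at -0.27 (SE 0.10, adjusted p = 0.0526) and was called lower by DESeq2. With library-size scaling the calls in the rest of the family were Pmaip1, Bnip3 and Bnip3l as higher and Bcl2l12 as lower, and on log2(TPM + 1) they were Pmaip1 and Bnip3 as higher and Bcl2l12 as lower.

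Downstream of the mitochondrion, 3 of the 11 reported genes of the apoptosome and caspase list were higher and 1 was lower, with 2 further genes of the list left out. Beside the counts of this and the following lists, 15.6% of all genes tested were higher and 12.7% were lower. Casp6, encoding an effector caspase, rose from 93.3 ± 18.3 to 147 ± 13.3 CPM (log2 fold change 0.65, SE 0.12, adjusted p = 0.00323), and Cycs, encoding cytochrome c, from 95.8 ± 15.6 to 135 ± 16.5 CPM (0.49, SE 0.11, adjusted p = 0.00865). Htra2, a mitochondrial protease that can antagonize caspase inhibitors once released, fell from 27.0 ± 2.51 to 21.2 ± 1.71 CPM (-0.35, SE 0.08, adjusted p = 0.0103). Of the 6 caspase inhibitor genes 3 were higher, namely Xiap (0.58, SE 0.07, adjusted p = 4.1e-04), Cflar (0.54, SE 0.09, adjusted p = 0.00192) and Birc2 (0.23, SE 0.08, adjusted p = 0.0497). Transcripts that promote and transcripts that restrain caspase activity were thus both among the genes that rose. Apaf1, Cflar, Cycs and Xiap are among the genes that the study displayed for cell death from these same libraries, so that their directions are not independent evidence. The median log2 fold change of the inhibitors was 0.23, against -0.03 over all genes, and became 0.10 with library-size scaling and 0.06 on log2(TPM + 1). The calls of Casp6, Cycs, Htra2 and Xiap were also made with library-size scaling and on log2(TPM + 1), whereas those of Casp9 and Birc2 were made on neither scale and that of Cflar not on the TPM scale.

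Genes around the mitochondrial step were mostly not called, as were most of all genes tested (28.3% called). Of 9 partners and turnover factors of BCL2 proteins only Mtch2, a mitochondrial receptor for BID, passed (0.46, SE 0.10, adjusted p = 0.0064), with a list median of 0.04. Among transcription factors that act on BCL2 family genes, 9 of 10 could be tested, and 1 was higher and 3 were lower. Trp53, encoding p53, fell from 151 ± 13.5 to 112 ± 4.44 CPM (-0.44, SE 0.07, adjusted p = 0.00149), E2f1, a driver of S-phase entry, was lower (-0.59, SE 0.10, adjusted p = 0.0019), and Foxo3, a factor that induces Bcl2l11, was higher (0.45, SE 0.10, adjusted p = 0.00653), a call that was not made on log2(TPM + 1). Myc was the other factor called lower (-0.33, SE 0.09, adjusted p = 0.0177). With library-size scaling Huwe1, a ligase for MCL1, and Fbxw7 were called lower among the partners.

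The targets of p53 outside the family moved in both directions. Of 8 genes 2 were higher and 2 were lower, with Cdkn1a, the cell cycle inhibitor p21, at 0.78 (SE 0.17, adjusted p = 0.00741), Mdm2 at 0.34 (SE 0.09, adjusted p = 0.0136, a call made neither with library-size scaling nor on log2(TPM + 1)) and Aen, an apoptosis-enhancing nuclease, at -0.56 (SE 0.12, adjusted p = 0.0054). Of 6 death receptor and adaptor genes 2 were higher, the receptor Fas (1.25, SE 0.30, adjusted p = 0.0103) and the TNF receptor Tnfrsf1a (0.26, SE 0.07, adjusted p = 0.0143), and none was lower. Of these, Fas was also called with library-size scaling and on log2(TPM + 1), and Tnfrsf1a on neither. The list medians were 0.05 for the p53 targets, which became -0.08 with library-size scaling and -0.02 on log2(TPM + 1), and 0.14 for the receptors, which became 0.01 and 0.03 in the same order.

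**Figure D4:**
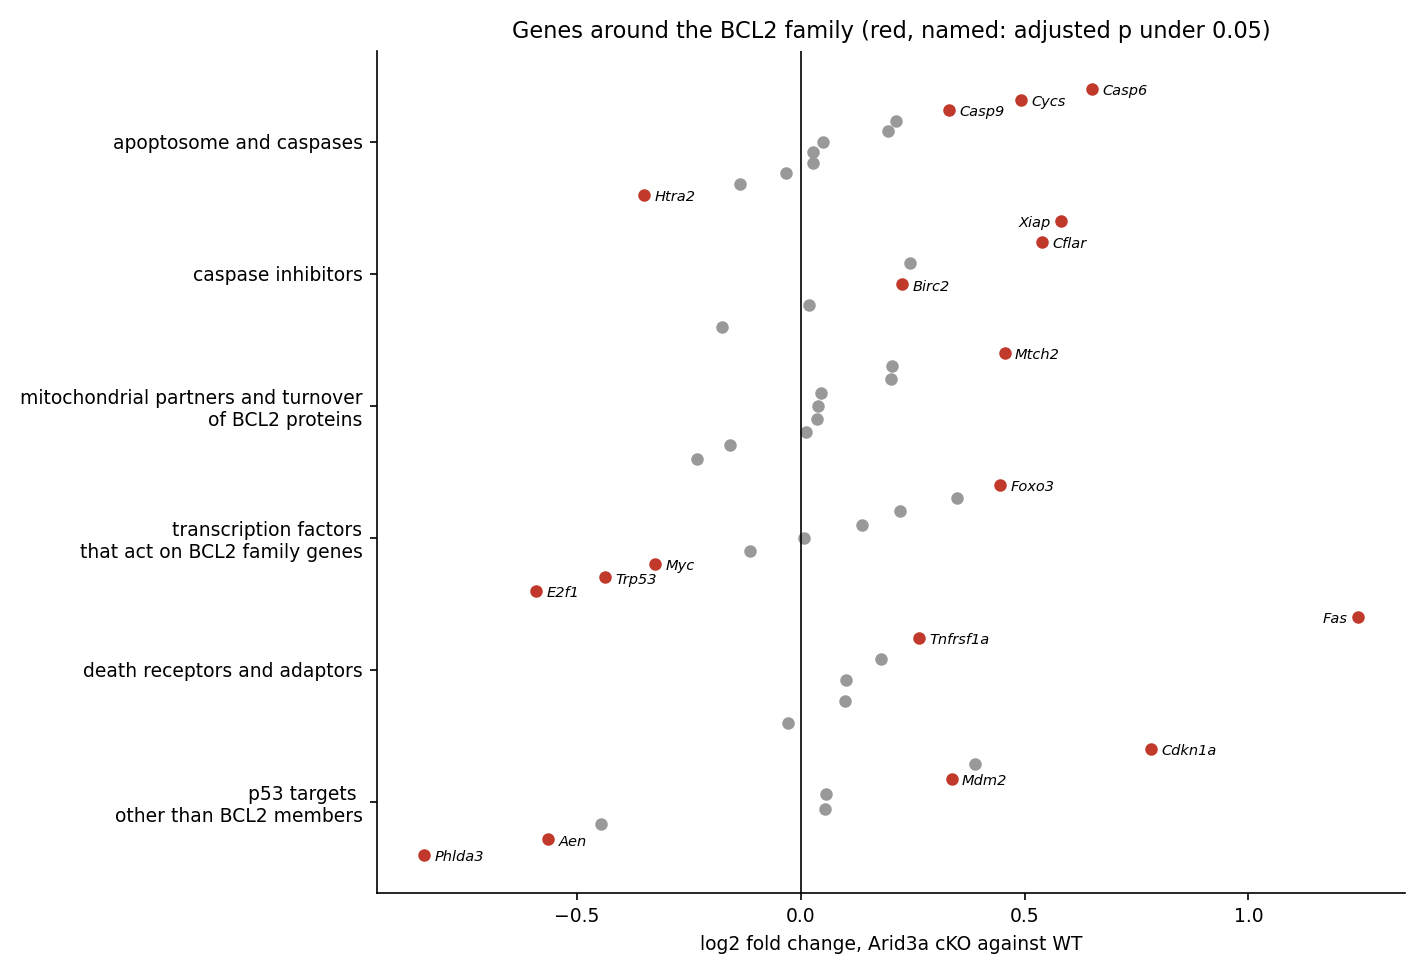
Log2 fold change in Arid3a cKO against WT crypts of the reported genes of 6 lists around the BCL2 family, 1 point per gene, with red and a name for an adjusted p below 0.05 in edgeR. The called genes of the caspase and inhibitor lists lie to the right of 0, apart from Htra2, whereas called transcription factors and p53 targets lie on both sides.

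The average length of the transcripts that RSEM assigned to each member was compared as a sign of a change in isoform use. No member passed (limma on log2 length), while 0.135% of 11860 genes did, and Mcl1 was the 1 member with an unadjusted p below 0.05. Mcl1 came closest, from 3320 ± 70.6 to 3416 ± 3.87 bases (log2 difference 0.04, SE 0.01, adjusted p = 0.249), and Bax averaged 879 ± 3.50 and 865 ± 14.9 bases without overlap (adjusted p = 0.490). The lowest WT length of Bax was 874.2 and the highest cKO length 873.6 bases, with cKO replicate 4 at 838.6 bases. The share of all genes without overlap in length was not computed. For Bcl2l1, whose long and short forms have opposing effects on survival, the length was 2178 ± 88.3 and 2157 ± 160 bases (adjusted p = 0.961). A mean length does not resolve these forms.

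Genes with the most similar pattern to the 2 called members were listed by Pearson's r of log2 CPM, as a description across 10 libraries of 2 genotypes. They are the highest r among all other tested genes, so that their size is in part a result of this selection. For Bcl2l1 they were Rhob (r = 0.979), Mgat3 (r = 0.977) and Liph (r = 0.975), and after the mean of each genotype was taken off Yipf3 (r = 0.967), Rhob (r = 0.945) and Mgat3 (r = 0.941). Rhob and Mgat3 were in both lists, which rest on the same 10 libraries. For Mcl1 they were Gm9917 (r = 0.961), Gm11775 (r = 0.940) and Dusp5 (r = 0.936), and with the genotype means taken off Gm28370 (r = 0.945), Rsrp1 (r = 0.931) and Chka (r = 0.924).

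**Figure D5:**
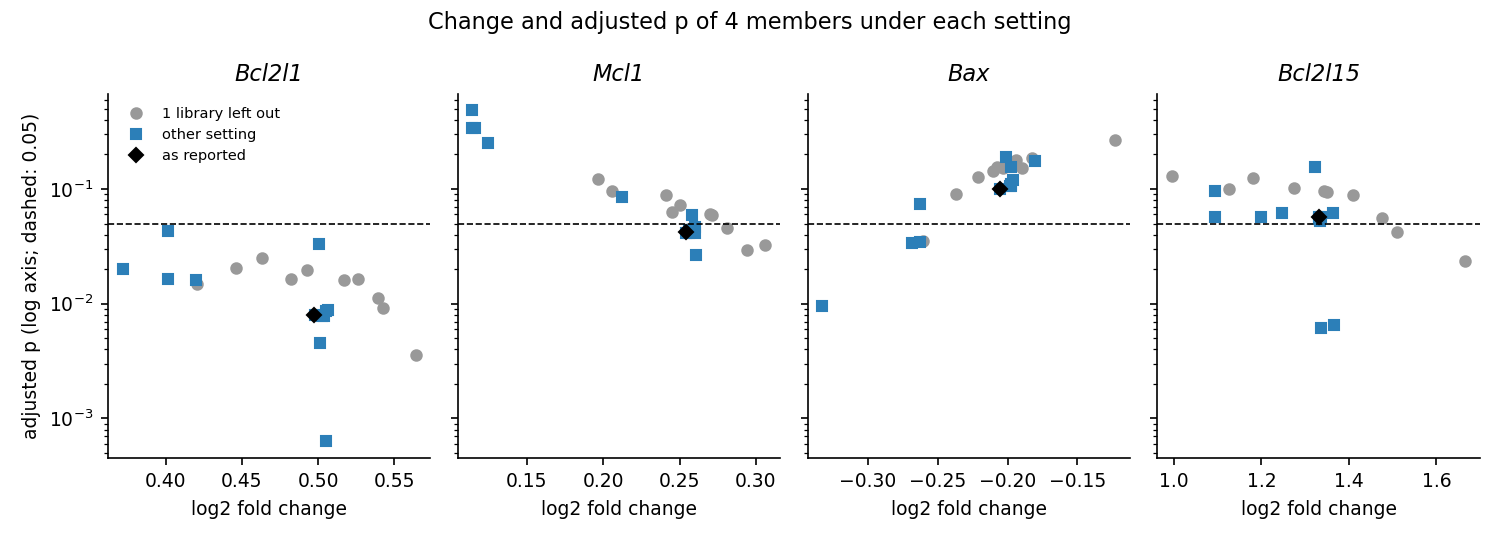
Log2 fold change (horizontal axis) and adjusted p (log axis, dashed line at 0.05) of Bcl2l1, Mcl1, Bax and Bcl2l15 as reported (black), with 1 library left out (grey) and under the other settings (blue). All points of Bcl2l1 lie below the line, while those of the other 3 genes lie on both sides.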

How the data were processed

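Crypt libraries of 5 WT and 5 Arid3a cKO animals were grouped by the labels. The authors processed reads with nf-core/rnaseq, in which STAR aligned them and RSEM estimated expression (Ensembl release 95, GRCm38). The deposited values used here were expected counts, not normalized between libraries, TPM, and the transcript length of each gene. RSEM divides reads among similar genes and isoforms. The strand setting is not given in the sources used here.

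Expected counts were rounded, filtered with filterByExpr (minimum count 10, minimum total 15; 14719 genes), normalized by TMM and tested with the robust quasi-likelihood test of edgeR 4.0.16 (R 4.3.3), with Benjamini-Hochberg adjustment over all tested genes at 0.05. CPM values use TMM library sizes, and the SE of a fold change is its size divided by the root of the F statistic. Transcript lengths were tested with limma 3.58.1 on the log2 scale for 11860 genes. DESeq2 (1.42.0 here; the authors also used DESeq2) was an alternative, as were other scalings, filters, limma on TPM (pseudocounts 1 and 0.1) and leaving out libraries. The edgeR and limma tests were also run on simulated data. In edgeR, 72 of 100 genes with a log2 fold change of 1 in either direction were called, and 87 of 100 with 2. There, 9 unchanged genes were called as well. Smaller changes were not simulated for edgeR. At 27 to 31 counts per CPM, members under 1 CPM are imprecise. Promoter windows are from RefSeq (GRCm38.p6) and symbols from GENCODE M21. Named genes were the 10 members, the rest of the family, at most 3 called genes of each pathway list with the lowest adjusted p, and the 3 genes most similar to each of the 2 called members. Casp9, Myc, Huwe1, Fbxw7, Clca1 and Agr2 were named after their values were seen. Of the caspase list 2 genes are not reported here, and its counts leave them out. The members and lists were chosen with earlier results of these data known.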

Additional observations from a re-analysis of the deposited data

Results flagged for a closer look

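In 42 groups of 5 libraries, 3 had an end value far from the others by Dixon's criterion, which chance gives in about 1 of 20 groups. The Mcl1 transcript length was 3409 bases in cKO replicate 1 and 3418 bases in the other cKO libraries. The Bax transcript length was 838.6 bases in cKO replicate 4, the lowest of its group. Bcl2l11 was at 10.71 CPM in WT replicate 2, the lowest WT library, and without it the log2 fold change was 0.16 instead of 0.24.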

How the results depend on the processing

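Of 219 recomputed fold changes of members, 194 kept their direction and side of the threshold, among them all 22 of Bcl2l1 (0.37 to 0.56), and 3 changed sign. Mcl1 lost its call with library size only (0.12), no filter (0.26), effective length as an offset (0.21), log2(TPM + 1) (0.11), log2(TPM + 0.1) (0.12) and log2(TPM + 1) with no filter (0.11), and leaving out 1 library gave 0.20 to 0.31. Bax passed with library size only (-0.33), log2(TPM + 1) (-0.26) and log2(TPM + 0.1) (-0.27), and leaving out 1 library gave -0.26 to -0.12. Bcl2l15 passed in DESeq2 (1.34) and with the replicate block (1.36), and leaving out 1 library gave 1.00 to 1.67. Leaving out 1 library gave 0.12 to 0.24 for Bak1. Bbc3 turned to -0.0124 on log2(TPM + 1), with and without the filter, and to -0.0150 on log2(TPM + 0.1). The cause was not tested.

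The number of members called was 1 with no filter, effective length or unfiltered TPM, and 1 to 3 without 1 library. The number called higher was 1 with library size only, no filter, effective length and the 3 TPM settings, and 1 to 3 without 1 library. The number called lower was 1 with library size only, log2(TPM + 1) and log2(TPM + 0.1), and 0 to 1 without 1 library. Over all genes, 1411, 1399 and 1091 were higher on log2(TPM + 1), log2(TPM + 0.1) and unfiltered TPM, against 2298. With library size only 4030 were lower, against 1869, and calls were 27.7% higher against 55.1%; without 1 library 1131 to 2112 were lower. The difference in pro-survival share was 1.89 to 3.12 percentage points without 1 library.

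No pairing of the samples by replicate number was detected, although these values cannot show whether same-numbered animals were handled together. Deviations of same-numbered WT and cKO libraries had correlations of -0.157, -0.036, 0.131, -0.141 and -0.152. No WT library was matched best by the cKO library of its own number. A replicate block lowered the genes called lower to 1191 and left 1861 higher. Lengths changed sign without 1 library for Bcl2 (-0.00406 to 0.0125), Bcl2l1 (-0.0435 to 0.0303), Bik (-0.114 to 0.0168) and Bcl2l15 (-0.00979 to 0.0341), none past the threshold. Bik (7 to 21 counts) and Bbc3 (32 to 67 counts) had the lowest counts of the members, and the part of depth in their spread was not tested.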
